A study of Mus musculus with 8 samples.

Results

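The 42 genes described here are the amino acid transporter families Slc1, Slc3, Slc7, Slc36, Slc38 and Slc43, taken as every gene of the count table whose symbol is one of these family names followed by the letter a and a number. They are 42 of 24537 genes in the table, 7 in Slc1, 2 in Slc3, 15 in Slc7, 4 in Slc36, 11 in Slc38 and 3 in Slc43. RNA was measured in pancreatic islets of male mice aged 12 weeks, in 4 Wfs1KO samples (labelled as Wfs1 knockout) and 4 WT samples, with no treatment. Wfs1 encodes wolframin, found in endoplasmic reticulum membranes and mutated in Wolfram syndrome. The strain, the knockout allele and the cells in which the gene is deleted are not given in the sources used here. Wfs1 RNA was lower in the Wfs1KO libraries but far from absent, at 101, 105, 125 and 98.9 CPM in Wfs1KO and 182, 156, 190.1 and 188 CPM in WT (CPM, counts per 1000000 with TMM-scaled library sizes, log2 fold change -0.74, SE 0.08, edgeR adjusted p = 5.06e-05). The groups did not overlap, but these values do not show a loss of the transcript, and without knowing the deleted part they are no check of whether the protein is lost. Wfs1KO is therefore used here as the name on the label. The comparison asks how islets labelled Wfs1KO differ from WT islets in the RNA of genes that carry amino acids across membranes.

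Amino acids enter cells through carriers that differ in substrate and in driving force. Slc1 proteins use the sodium gradient to take up glutamate, aspartate or small neutral amino acids. Slc7 light chains mostly pair with a glycoprotein heavy chain of the Slc3 family and exchange one amino acid for another, whereas the cationic transporters of the same family work without a heavy chain and carry arginine, lysine and ornithine. Slc38 proteins move glutamine, alanine and other small neutral amino acids with sodium, and some Slc36 proteins, such as PAT1, use protons. The Slc43 transporters LAT3 and LAT4 carry branched-chain and other large neutral amino acids. In beta cells, the insulin-secreting cells of the islet, arginine and other cationic amino acids depolarise the membrane as they enter, and amino acids also feed protein synthesis, mTORC1 and glutathione. When eIF2 is phosphorylated, the transcription factor ATF4 induces many amino acid transporter genes through promoter motifs known as C/EBP-ATF response elements, abbreviated CARE.

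The motif is shown here for the gene with the largest change, since it lies in the window just upstream of that gene's start. RefSeq promoter windows of GRCm38.p6, the assembly behind mm10, held 31 of the 42 members, from 250 bases before to 50 bases after the annotated start. Both strands were searched for CARE, spelled TGATGNAA, and for the core of the antioxidant response element bound by NRF2, spelled TGACNNNGC. The stretches below are printed 5′ to 3′ on the strand of the gene, with the motif in capitals, from chr3:50443614-50443763 for Slc7a11, chr11:20332710-20332833 for Slc1a4 and chr5:148399905-148400024 for Slc7a1, each on the minus strand. The Slc7a11 and Slc7a1 stretches end at the base before the start, and that of Slc1a4 runs to base 4, counting the start as base 1.
Slc7a11, CARE: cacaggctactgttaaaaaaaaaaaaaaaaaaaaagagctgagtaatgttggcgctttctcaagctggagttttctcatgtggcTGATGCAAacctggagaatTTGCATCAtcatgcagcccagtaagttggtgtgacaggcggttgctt
Slc1a4, CARE: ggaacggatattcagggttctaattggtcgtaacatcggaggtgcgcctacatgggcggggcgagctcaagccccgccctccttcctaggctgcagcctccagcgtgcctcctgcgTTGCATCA
Slc7a1, antioxidant element core: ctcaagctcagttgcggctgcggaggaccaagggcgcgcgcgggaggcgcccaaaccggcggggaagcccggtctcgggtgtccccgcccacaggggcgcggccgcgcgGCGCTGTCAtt

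Slc7a11 held 2 CARE motifs, at bases -66 to -59 in the direction of the gene and at -47 to -40 on the other strand, with 11 bases between them. Slc1a4 held 1, from base -4 to base 4 on the other strand. The third member with the motif was Slc7a7, a light chain whose RNA did not pass the test. It also held 2, at chr14:54417938-54417945 and chr14:54418078-54418085, over windows from different annotated starts. Holding 2 motifs is thus not particular to Slc7a11. CARE was thus found in 3 of the 31 members, against 4.51% of all 27025 genes with a window and 6 of the 16 genes of an amino acid response list (Asns, Atf3, Chac1, Nupr1, Trib3 and Vldlr). The antioxidant core was found in 5 of the 31 members (Slc7a1, Slc7a6, Slc36a1, Slc38a2 and Slc43a1), against 14% of all genes. No CARE match overlapped an antioxidant core match in these windows. A match says only that the letters are present, and the stretches of Slc1a4 and Slc7a1 were chosen after their values were seen. Bases outside the windows were not searched, and 11 members, among them Slc1a5, Slc7a3 and Slc7a5, had no window. A member without a match here may therefore hold the motif elsewhere.

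The summed CPM of the 6 families, not scaled by length, was nearly the same in both genotypes, while its make-up differed. It came to 3719 ± 128 CPM in Wfs1KO and 3695 ± 143 CPM in WT (SD, n = 4 each), and the genotypes overlapped. The family sums were not all level. Without overlap, Slc1 (76.8 CPM in Wfs1KO and 44.9 in WT), Slc3 (316 and 240.5) and Slc38 (1217 and 1114) were higher, and Slc43 (314 and 403) was lower. The sums of Slc7 and Slc36 overlapped. Of the 42 members, 35 passed the filter on low counts, and 13 of these rose, 5 fell and 17 did not pass edgeR's quasi-likelihood test at a Benjamini-Hochberg adjusted p of 0.05 over all 15733 tested genes. Over all tested genes, 10.4% were called higher and 8.49% were called lower. The median log2 fold change was 0.24 over the tested members and 0.01 over all tested genes. All 18 called members, and none of the other 17, were without overlap between the 4 Wfs1KO and the 4 WT libraries, as were 22.6% of all tested genes. Counted at 2-fold or more, 2 members (Slc7a3 and Slc7a11) were called higher, as were 0.833% of all tested genes.

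**Figure D1:**
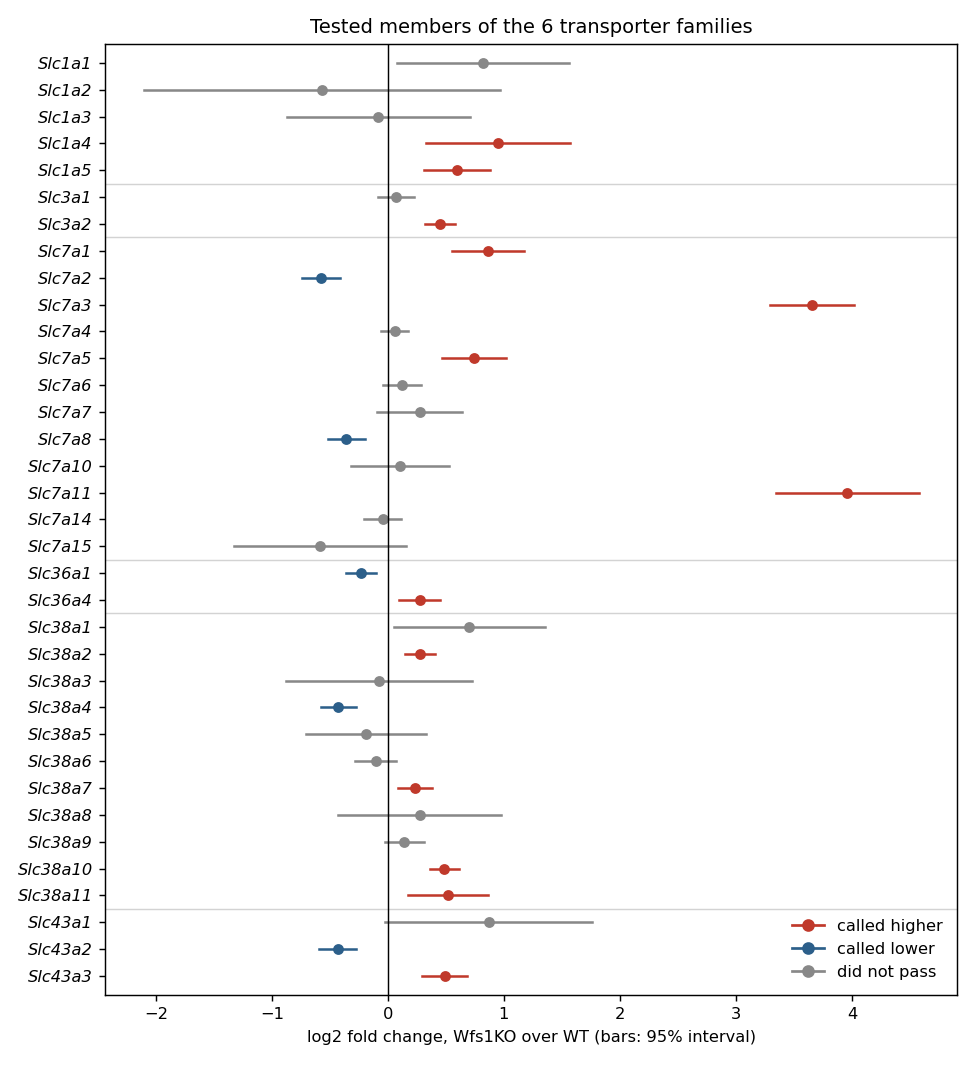
Log2 fold change of Wfs1KO over WT (x axis) for the 35 tested members (rows, in family order, families parted by grey lines), with 95% intervals as bars. Slc7a11 and Slc7a3 lie near 4, and the other 11 genes that rose lie between 0.24 and 0.95.

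Exon counts ran from 15810830 to 27057617 per library. The summed beta cell markers ran from 109900 to 135200 CPM in Wfs1KO and 162200 to 207900 CPM in WT, with 7 of 9 lower and 1 higher, and fewer cells of a type and less RNA per cell cannot be told apart in bulk islets. Of 5 markers of delta and PP cells, the other hormone cells of the islet, 3 rose (Sst, Hhex and Ghsr) by edgeR, and likewise 3 by DESeq2 and by limma-voom, and the list summed to 4748 to 6942 CPM in Wfs1KO and 4030 to 5002 CPM in WT. Of 8 alpha cell markers 1 rose, Gc, which was 2.14-fold higher, and the list summed to 18790 to 26140 CPM in Wfs1KO and 15800 to 20740 CPM in WT. Endothelial markers summed to 912.5 to 1078 CPM in Wfs1KO and 678 to 768 CPM in WT (12 of 14 rose), and stellate and pericyte markers to 448 to 552 CPM in Wfs1KO and 282 to 409 CPM in WT (4 of 14 rose). No marker of these lists was at 0 in all libraries. Acinar markers, from the enzyme-secreting cells around islets, ran from 10690 to 72970 CPM in Wfs1KO and 33890 to 76290 CPM in WT, with 0 of 12 tested called by edgeR, DESeq2 or limma-voom and 0 at an unadjusted p under 0.05. The part of these markers in the results was not tested, beyond a fit with the acinar score as covariate in which 12 members rose and 5 fell.

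Slc7a11 encodes xCT, the light chain that imports cystine in exchange for glutamate (NM_011990, chr3:50364936-50443613, minus strand, mm10). It had 22.4, 23.2, 20.7 and 32.3 CPM in Wfs1KO replicates 1 to 4, against 2.05, 1.85, 1.89 and 0.638 CPM in WT replicates 1 to 4. Every Wfs1KO library was above every WT library, and WT replicate 4 was the lowest. The mean was 15.3-fold higher in Wfs1KO, and the log2 fold change was 3.96 (SE 0.27, adjusted p = 1.80e-05). The libraries held 359 to 652 reads of the gene in Wfs1KO and 13 to 39 in WT. Per length it remained a minor transcript, at 2.67 CPM per kb of exon in Wfs1KO and 0.174 CPM per kb in WT, rank 23 and rank 35 of the 42 members.

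Slc3a2 encodes 4F2hc, the heavy chain that carries xCT, LAT1 and other light chains to the cell surface (NM_008577). Its level was 278, 296, 256 and 278 CPM in Wfs1KO libraries and 215.5, 204, 206 and 187 CPM in WT libraries, without overlap. It rose (log2 fold change 0.45, SE 0.06, adjusted p = 0.0002). The other heavy chain gene, Slc3a1, encodes rBAT, known from kidney and gut, and had 36.45, 41.9, 39.6 and 39.0 CPM in Wfs1KO and 36.6, 32.6, 40.25 and 39.7 CPM in WT, with a log2 fold change of 0.07 (95% interval -0.08 to 0.23) that did not pass. Exons of Slc3a1 overlap those of Prepl on the other strand over 601 bases, and counting used no strand option. Prepl averaged 262 CPM in Wfs1KO and 256 CPM in WT, far above Slc3a1, and their reads cannot be told apart in the shared bases. The partners of rBAT were at the edge of detection: Slc7a9, its b0,+AT light chain, had 2 to 9 reads per Wfs1KO library and 3 to 8 per WT library, and Slc7a13, the AGT1 gene, had 0 to 4 per Wfs1KO library and 2 to 7 per WT library.

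Set against its heavy chain per length, the 6 light chains known to pair with 4F2hc (Slc7a5, Slc7a6, Slc7a7, Slc7a8, Slc7a10 and Slc7a11) summed to 138 ± 9.49 CPM per kb in Wfs1KO and 112.5 ± 10.4 CPM per kb in WT (SD, n = 4 each). Slc3a2 stood at 108 ± 6.29 CPM per kb in Wfs1KO and 79.3 ± 4.57 CPM per kb in WT. For the light chain sum, as for Slc3a2, each Wfs1KO library was above each WT library. The light chains summed to 128 to 151 CPM per kb in Wfs1KO and 102 to 123.5 CPM per kb in WT. They did not rise together. Slc7a5 averaged 83.9 CPM per kb in Wfs1KO and 50.2 in WT, and Slc7a11 rose at a low level (2.67 and 0.174). Slc7a8 fell (41.1 in Wfs1KO and 52.7 in WT), and Slc7a6, Slc7a7 and Slc7a10 did not pass.

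Among cationic amino acid transporters the most abundant gene fell while its paralogs rose. Slc7a3, which encodes CAT3 (NM_007515, chrX:101079210-101085405, minus strand), had 22.4, 21.3, 17.1 and 27.3 CPM in Wfs1KO libraries, against 1.58, 1.44, 1.76 and 2.16 CPM in WT libraries. All Wfs1KO libraries were far above all WT libraries, and the mean was 12.7-fold higher (log2 fold change 3.66, SE 0.17, adjusted p = 3.97e-08). Slc7a1, which encodes the widely expressed CAT1, had 132.5, 126, 133 and 157 CPM in Wfs1KO libraries and 85.1, 77.0, 84.8 and 54.7 CPM in WT libraries. The groups did not overlap, WT replicate 4 was again the lowest, and the log2 fold change was 0.86 (SE 0.14, adjusted p = 0.00226).

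Slc7a2, which encodes CAT2 and is expressed in alpha cells as well as beta cells, had 499, 490.5, 508 and 558 CPM in Wfs1KO libraries and 818.5, 829, 719 and 696 CPM in WT libraries. It fell (log2 fold change -0.58, SE 0.07, adjusted p = 1.37e-04), again without overlap. Per length the 3 genes summed to 94.97 ± 7.20 CPM per kb in Wfs1KO and 110.6 ± 9.94 CPM per kb in WT (SD, n = 4 each), with overlap between 90.05 to 106 CPM per kb in Wfs1KO and 98.8 to 119 CPM per kb in WT. Exons of Slc7a2 share 635 bases with the lincRNA Gm26584 on the other strand.

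The make-up of the cationic class per length differed between genotypes in every library. Slc7a2 made up 70.3 ± 1.42% of their summed CPM per kb in Wfs1KO and 89.85 ± 1.39% in WT (SD, n = 4 each). Slc7a1 made up 20.1 ± 0.516% in Wfs1KO and 9.49 ± 1.47% in WT, and Slc7a3 made up 9.62 ± 1.28% in Wfs1KO and 0.665 ± 0.181% in WT. None of these shares overlapped between genotypes. The shares are made from the values given above, in which Slc7a2 fell and Slc7a1 and Slc7a3 rose, each without overlap. They restate those calls per length and are no separate result. Slc7a4 and Slc7a14, which resemble the cationic transporters in sequence but have no settled substrate at the cell surface, did not pass. Slc7a14 was abundant, at 433, 410, 445 and 482 CPM in Wfs1KO and 507, 458, 450 and 412 CPM in WT, with a log2 fold change of -0.05 (95% interval -0.20 to 0.11). For Slc7a4 the libraries gave 40.2, 39.7, 41.5 and 41.5 CPM in Wfs1KO and 38.3, 37.1, 39.85 and 41.0 CPM in WT, and the log2 fold change was 0.06 (95% interval -0.06 to 0.18). Both pairs of groups overlapped. Slc7a4 shares 554 exon bases with P2rx6 on the other strand.

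**Figure D2:**
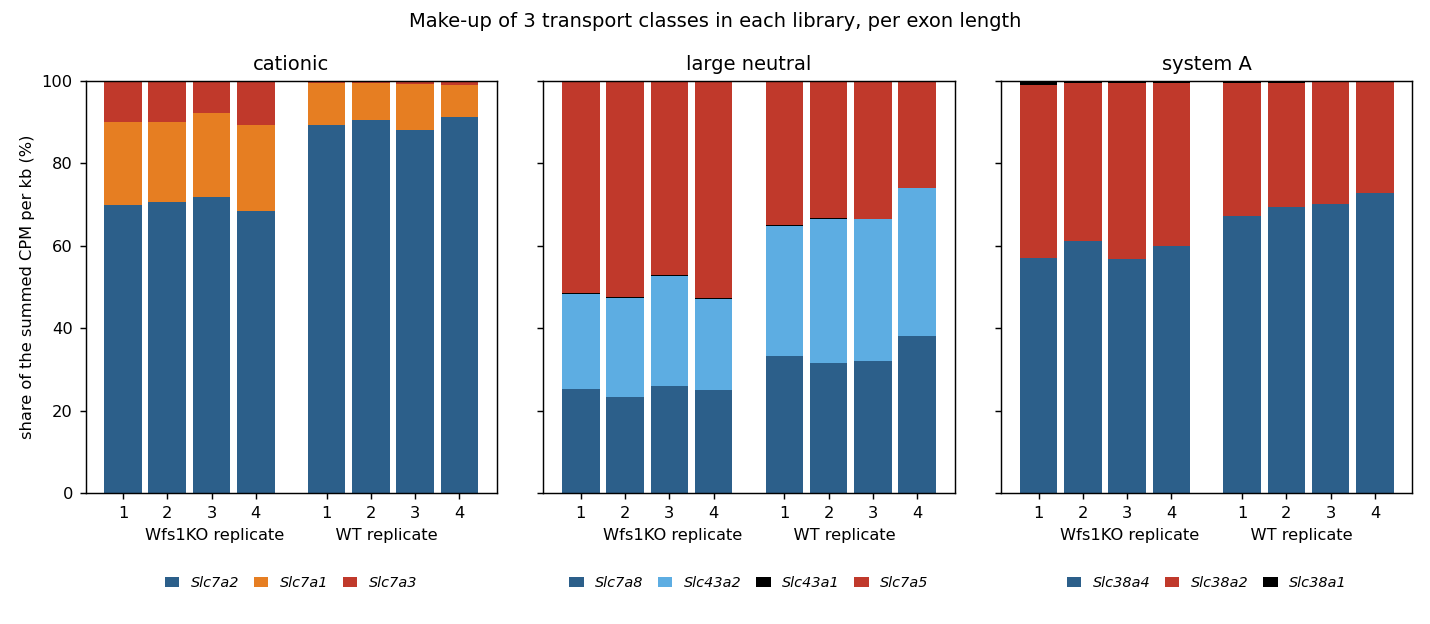
Share (%) that each gene takes of the summed CPM per kb of exon of its transport class, in each of the 4 Wfs1KO and 4 WT libraries (bars, by replicate). Slc7a2 takes 68.5 to 71.9% of the cationic class in Wfs1KO and 88.1 to 91.4% in WT, and Slc7a5 takes 47.1 to 52.8% of the large neutral class in Wfs1KO and 25.9 to 35.0% in WT.

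Carriers of large neutral amino acids also moved in both directions. Slc7a5 encodes LAT1, the light chain that imports leucine, phenylalanine and tryptophan in exchange for glutamine (NM_011404). Its libraries held 289, 282, 281 and 324 CPM in Wfs1KO and 205, 173, 195 and 131 CPM in WT. Wfs1KO libraries lay above all WT libraries, and the log2 fold change was 0.74 (SE 0.12, adjusted p = 0.00213).

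LAT2 and LAT4 moved the other way. Slc7a8, the LAT2 light chain gene, had 163, 145, 177.5 and 175 CPM in Wfs1KO and 224, 189, 214 and 219.9 CPM in WT, and fell (log2 fold change -0.36, SE 0.07, adjusted p = 0.00351). Slc43a2, which encodes LAT4, a carrier that works without a heavy chain, had 262, 263, 326 and 278 CPM in Wfs1KO and 376, 372, 407 and 368 CPM in WT. The groups did not overlap, and it fell (log2 fold change -0.43, SE 0.07, adjusted p = 9.87e-04). Slc43a2 shares 922 exon bases with the antisense gene Gm45606. Slc43a1, which encodes LAT3, had 0.495 to 1.11 CPM in Wfs1KO and 0.344 to 0.635 CPM in WT and did not pass (log2 fold change 0.87, 95% interval -0.02 to 1.76).

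Per length, Slc7a5 made up 50.9 ± 2.61% of the large neutral carriers in Wfs1KO and 31.9 ± 4.075% in WT (SD, n = 4 each). The shares of Slc7a8 were 24.9 ± 1.07% in Wfs1KO and 33.75 ± 2.95% in WT, and those of Slc43a2 were 24.0 ± 2.03% in Wfs1KO and 34.2 ± 1.88% in WT. The sum of these carriers per length overlapped between genotypes, at 165 ± 9.705 CPM per kb in Wfs1KO and 156.5 ± 11.9 CPM per kb in WT.

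**Figure D3:**
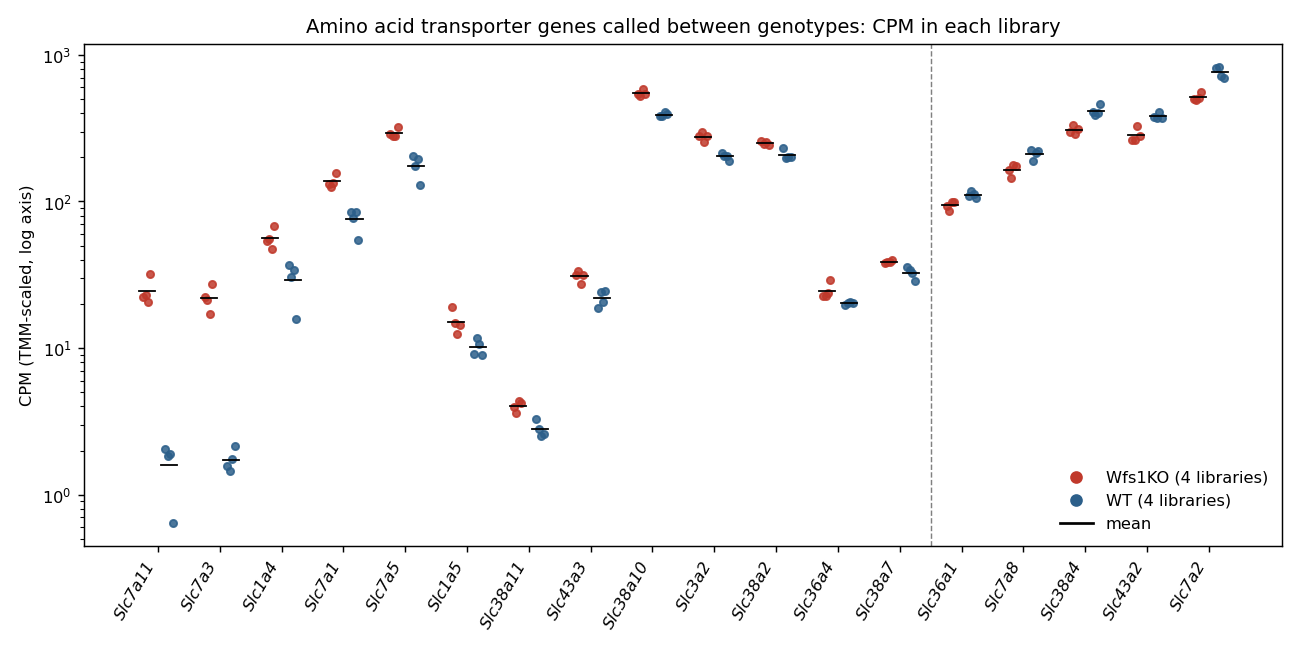
CPM with TMM-scaled library sizes (log axis) of the 18 called members in each library (points), with the mean of 4 libraries as a line. Genes are ordered by log2 fold change, with the 13 that rose left of the dashed line and the 5 that fell right of it, and no gene has overlapping groups.

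Sodium-coupled carriers of small neutral amino acids rose within the Slc1 family. Slc1a5 encodes ASCT2, an exchanger of glutamine and other neutral amino acids, and had 19.05, 14.8, 12.5 and 14.3 CPM in Wfs1KO against 9.09, 11.7, 10.7 and 8.98 CPM in WT. Its highest WT library was just below its lowest Wfs1KO library, and it rose (log2 fold change 0.60, SE 0.13, adjusted p = 0.00669). Slc1a4 encodes ASCT1, which carries serine, alanine and cysteine, and had 54.1, 55.9, 47.7 and 67.7 CPM in Wfs1KO against 36.7, 30.7, 34.04 and 15.85 CPM in WT. WT replicate 4 stood well below the other WT libraries.

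The log2 fold change of Slc1a4 was 0.95 (SE 0.26, adjusted p = 0.0473), and its call was less firm than that of Slc1a5. It was lost with the replicate number as a block (adjusted p = 0.184) and on leaving out any 1 library except WT replicate 4 (0.0521 to 0.104). Without WT replicate 4 the adjusted p was 0.00113 and the log2 fold change 0.74.

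Glutamate and aspartate carriers of the same family were scarce. Slc1a1, Slc1a2 and Slc1a3, which encode EAAC1, GLT-1 and GLAST, ran from 0.346 to 3.01 CPM in Wfs1KO and from 0.589 to 3.925 CPM in WT, all with overlap. Their log2 fold changes were 0.82 (95% interval 0.08 to 1.56, adjusted p = 0.117), -0.57 (95% interval -2.10 to 0.97) and -0.08 (95% interval -0.87 to 0.71), and none passed. Without WT replicate 3, Slc1a1 passed (adjusted p = 0.0453, log2 fold change 1.15). The value of Slc1a2 rested on single libraries, at -1.39 without Wfs1KO replicate 1, -0.29 without Wfs1KO replicate 3, -0.31 without Wfs1KO replicate 4 and -0.05 without WT replicate 2. Slc1a2 shares 189 exon bases with Gm13872, and Slc1a1 shares 2631 exon bases with 4430402I18Rik on the other strand. The latter overlap equals 71.2% of the exon length of Slc1a1. The partner 4430402I18Rik averaged 4.86 CPM in Wfs1KO and 5.13 CPM in WT, above Slc1a1 at 1.66 and 0.949 CPM. Reads of the 2 genes cannot be told apart in the shared bases, so the values of Slc1a1 may hold reads of its partner. Slc1a6 and Slc1a7, glutamate carriers of cerebellum and retina, did not pass the filter, with 0 to 24 reads per Wfs1KO library and 0 to 11 per WT library.

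In the Slc38 family, named SNAT for sodium-coupled neutral amino acid transporters, all 11 members were tested, 4 rose, 1 fell and 6 did not pass. Slc38a10 (NM_001164798), whose substrate is not settled, was the most abundant member of all families per length in Wfs1KO, at 120 CPM per kb, against 85.7 CPM per kb in WT, where it ranked 3. It had 545, 521, 582.5 and 544 CPM in Wfs1KO and 382.9, 381.5, 410.5 and 392.4 CPM in WT. The narrow groups were far apart, and the gene rose (log2 fold change 0.48, SE 0.06, adjusted p = 7.28e-05). Its exons share 367 bases with Gm11769 on the other strand.

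The system A carriers, which concentrate alanine, glutamine and other small neutral amino acids, differed in direction although they are neighbours on chromosome 15. Slc38a2, the SNAT2 gene that amino acid starvation is known to induce, had 260.0, 247, 256 and 243 CPM in Wfs1KO and 230.2, 199, 199.6 and 202 CPM in WT. It rose (log2 fold change 0.28, SE 0.06, adjusted p = 0.00498), without overlap. Slc38a4, an imprinted gene that encodes SNAT4 and lies 295 kb from Slc38a2, had 299, 335, 289 and 314 CPM in Wfs1KO and 405, 389, 402 and 464.5 CPM in WT. It fell (log2 fold change -0.43, SE 0.07, adjusted p = 7.98e-04), with all Wfs1KO libraries below all WT libraries.

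Slc38a1, which encodes SNAT1 and lies 45.4 kb from Slc38a2 on its other side, had 10.4, 6.29, 5.885 and 5.15 CPM in Wfs1KO and 4.68, 6.41, 2.77 and 3.29 CPM in WT. The groups overlapped, and the log2 fold change of 0.70 (95% interval 0.05 to 1.35) did not pass (adjusted p = 0.128). It passed with the replicate number as a block (0.0298) and without WT replicate 2 (0.0351). Without Wfs1KO replicate 1, its highest library, the log2 fold change was 0.43 (adjusted p = 0.284), and over the 8 fits without 1 library the adjusted p ran from 0.0351 to 0.284. Per length, Slc38a2 made up 40.6 ± 2.09% of the system A genes in Wfs1KO and 29.75 ± 2.28% in WT, and Slc38a4 made up 58.7 ± 2.21% in Wfs1KO and 69.9 ± 2.35% in WT (SD, n = 4 each). The 3 genes summed to 134 ± 4.14 CPM per kb in Wfs1KO and 152 ± 8.76 CPM per kb in WT, without overlap, with the highest Wfs1KO library at 140.0 and the lowest WT library at 143 CPM per kb.

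Of the SNAT genes whose proteins reside in lysosomes, Slc38a7, which exports glutamine and asparagine, rose slightly. It had 37.9, 38.4, 38.5 and 39.6 CPM in Wfs1KO and 35.9, 34.1, 32.35 and 28.8 CPM in WT, and the log2 fold change was 0.24 (SE 0.07, adjusted p = 0.0249). The call was lost without Wfs1KO replicate 2, 3 or 4 or WT replicate 3 or 4 (adjusted p 0.0507 to 0.0674). Slc38a9, whose protein reports lysosomal arginine to mTORC1, overlapped between genotypes at 23.9, 21.3, 23.2 and 21.4 CPM in Wfs1KO and 22.65, 21.2, 19.5 and 18.2 CPM in WT, with a log2 fold change of 0.14 (95% interval -0.03 to 0.31, adjusted p = 0.248). It shares 182 exon bases with the antisense gene Gm47827.

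Slc38a11, a scarce member of unsettled substrate, had 3.96, 3.63, 4.33 and 4.21 CPM in Wfs1KO and 3.31, 2.83, 2.50 and 2.601 CPM in WT. It rose (log2 fold change 0.52, SE 0.16, adjusted p = 0.0380), but not with the replicate number as a block (0.0664), nor when any 1 library except WT replicate 1 was left out (0.0516 to 0.1). Slc38a6 and Slc38a8, also without an assigned class here, did not pass. Slc38a6 had 17.1, 18.3, 16.7 and 18.85 CPM in Wfs1KO and 19.2, 21.2, 19.2 and 16.6 CPM in WT (log2 fold change -0.10), and Slc38a8 had 0.823 to 1.47 CPM in Wfs1KO and 0.675 to 1.31 CPM in WT.

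The system N carriers, which exchange glutamine and histidine for protons, did not pass. Slc38a3, the SNAT3 gene, had 5.88, 4.597, 2.54 and 9.40 CPM in Wfs1KO and 6.41, 4.73, 7.70 and 5.06 CPM in WT (log2 fold change -0.08, 95% interval -0.88 to 0.72). Slc38a5, the SNAT5 gene, which is expressed in alpha and acinar cells, had 10.5, 10.3, 11.4 and 15.7 CPM in Wfs1KO and 12.1, 8.72, 17.7 and 16.05 CPM in WT (log2 fold change -0.19, 95% interval -0.71 to 0.33). Both genes were highest in Wfs1KO replicate 4 and WT replicate 3, the libraries with the most acinar marker RNA in their genotype (72970 and 76290 CPM). In WT replicate 2, with the least acinar marker RNA in WT (33890 CPM), both were lowest in WT. Slc38a3 was lowest in Wfs1KO replicate 3, where acinar markers were also lowest (10690 CPM), but Slc38a5 was higher there than in Wfs1KO replicates 1 and 2. Slc38a5 also stood at 16.05 CPM in WT replicate 4, where acinar markers were at 35860 CPM. The part of acinar RNA in these levels was not tested.

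The Slc36 family, which holds proton-coupled carriers of proline, glycine and alanine such as PAT1, split between its abundant members. Slc36a1, which encodes the lysosomal and plasma membrane carrier PAT1, had 93.8, 85.9, 99.9 and 99.4 CPM in Wfs1KO and 109, 117, 113 and 105.5 CPM in WT. It fell (log2 fold change -0.23, SE 0.06, adjusted p = 0.0153), a call lost without Wfs1KO replicate 1 (0.0511) or WT replicate 3 (0.0508). Slc36a4, the PAT4 gene, had 22.6, 22.7, 23.8 and 29.1 CPM in Wfs1KO and 19.8, 20.2, 20.7 and 20.5 CPM in WT, and rose (log2 fold change 0.27, SE 0.08, adjusted p = 0.0340). Its Wfs1KO replicate 4 was well above the other libraries, and the call was lost without Wfs1KO replicate 3 or 4 or any 1 WT library (0.0618 to 0.107). Without Wfs1KO replicate 4 its log2 fold change was 0.17. Slc36a2 and Slc36a3, neighbours of Slc36a1 on chromosome 11, failed the filter, with 0 to 19 reads per Wfs1KO library and 0 to 6 per WT library.

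The remaining light chains did not pass. Slc7a6, the y+LAT2 gene whose product exchanges arginine for glutamine, had 26.6, 25.2, 25.4 and 31.8 CPM in Wfs1KO and 25.3, 24.1, 25.7 and 25.1 CPM in WT (log2 fold change 0.12, 95% interval -0.04 to 0.29). Slc7a7, the y+LAT1 gene that macrophages also express, had 3.68 to 5.39 CPM in Wfs1KO and 2.89 to 3.83 CPM in WT (log2 fold change 0.28). It was highest in Wfs1KO replicate 1, where summed macrophage markers were also highest (221 CPM, against 90.5 to 155 CPM in the other libraries). But it was lowest in WT replicate 1, where these markers (106.5 CPM) were above those of WT replicate 3 (90.5 CPM). The part of macrophage RNA in its level was not tested. Slc7a10, the asc-1 gene for small neutral amino acids, had 2.08 to 2.47 CPM in Wfs1KO and 1.997 to 2.43 CPM in WT, and Slc7a15, the ArpAT gene, had 0.735 to 1.24 CPM in Wfs1KO and 0.736 to 1.96 CPM in WT. Without Wfs1KO replicate 1 the log2 fold change of Slc7a7 was 0.14. On the other strand, Slc7a10 shares 377 exon bases with Lrp3, which averaged 67.5 CPM in Wfs1KO and 68.6 CPM in WT, and Slc7a7 shares 232 with Oxa1l, at 45.5 CPM in Wfs1KO and 44.05 CPM in WT. Both partners stood far above the member, and their reads cannot be told apart in the shared bases. Slc7a12, the asc-2 gene, had 3 reads in Wfs1KO replicate 1 and 0 in the other 7 libraries, where a count of 0 allows up to 3 reads (0.145 to 0.203 CPM in these 7 libraries, counting error only).

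Slc43a3 belongs to the families by name but encodes a nucleobase transporter, not an amino acid carrier. It had 31.65, 33.3, 27.6 and 31.4 CPM in Wfs1KO and 18.9, 24.2, 20.6 and 24.6 CPM in WT, without overlap, and rose (log2 fold change 0.49, SE 0.09, adjusted p = 0.00168). Its neighbour Slc43a1, 73.1 kb away on chromosome 2, did not pass.

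On the scale of CPM per kb of exon, the order of the abundant members differed between genotypes. In Wfs1KO the highest were Slc38a10 (120 ± 5.58 CPM per kb), Slc3a2 (108 ± 6.29), Slc7a5 (83.9 ± 5.78), Slc38a4 (78.95 ± 5.14) and Slc7a2 (66.7 ± 3.93). Within that order Slc38a10 and Slc3a2, and Slc7a5 and Slc38a4, differed by less than their summed SD. In WT the highest were Slc38a4 (106 ± 8.62 CPM per kb), Slc7a2 (99.35 ± 8.81), Slc38a10 (85.7 ± 2.93) and Slc3a2 (79.3 ± 4.57). There Slc38a4 and Slc7a2, and Slc38a10 and Slc3a2, differed by less than their summed SD. Slc7a5 ranked 3 of 42 in Wfs1KO and 8 in WT. Slc7a3 stood at 9.18 CPM per kb in Wfs1KO (rank 18) and 0.722 CPM per kb in WT (rank 27), so that both steeply changed genes remained well below the abundant carriers.

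**Figure D4:**
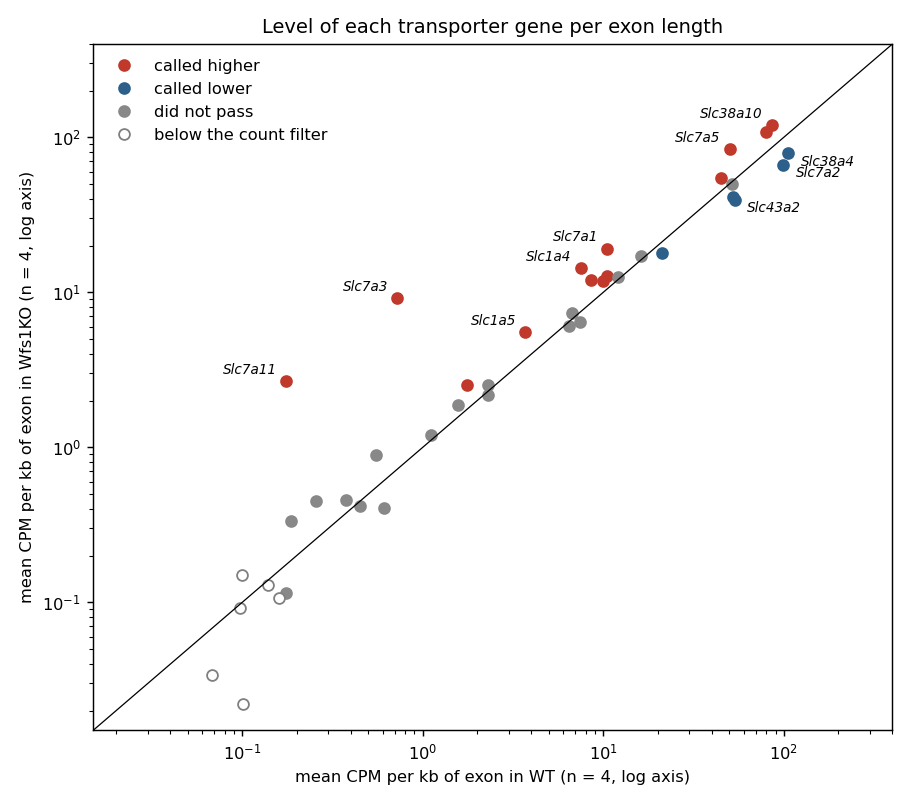
Mean CPM per kb of exon in Wfs1KO (y axis) against WT (x axis), both on log axes with n = 4 libraries each, for 41 of the members (points), with the line of equal level. Slc7a12, with a WT mean of 0, is left out. Slc7a11 and Slc7a3 lie far above the line, and the 5 genes that fell are among the 10 most abundant in WT.

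Lists of other genes of amino acid handling were read beside the families. Of 9 tested members of a list of other amino acid transporters, with 18 of 19 names in the table, 1 rose, 1 fell and 7 did not pass (median log2 fold change 0.17, against 0.01 over all tested genes). Ctns, the lysosomal cystine exporter, had 44.0 to 46.7 CPM in Wfs1KO and 38.5 to 39.6 CPM in WT and rose (log2 fold change 0.22, SE 0.05, adjusted p = 0.00747). Slc6a19, a carrier of neutral amino acids known from gut and kidney, had 9.03 to 11.4 CPM in Wfs1KO and 15.3 to 18.9 CPM in WT and fell (log2 fold change -0.75, SE 0.10, adjusted p = 1.83e-04). A list of mitochondrial carriers had 11 tested genes, of which Slc25a39 and Slc25a40 are tied to glutathione rather than to amino acids. Of the 11, 2 rose, 0 fell by edgeR, DESeq2 or limma-voom (1 at an unadjusted p under 0.05) and 9 did not pass (median 0.02). Those that rose were the serine carrier gene Sfxn1 (log2 fold change 0.20) and the glycine carrier gene Slc25a38 (0.27).

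Of 12 genes of glutathione synthesis and cystine use, for which xCT supplies cystine, 0 rose by edgeR, 2 fell and 10 did not pass (median 0.08). At an unadjusted p under 0.05, 2 were higher by edgeR, and at an adjusted p, 0 were by DESeq2 and 1 by limma-voom. Gclc, the catalytic subunit of the first enzyme of glutathione synthesis, had 41.95 to 52.55 CPM in Wfs1KO and 38.7 to 45.25 CPM in WT (log2 fold change 0.21, 95% interval 0.05 to 0.37, adjusted p = 0.0700). Cbs, which makes cystathionine from homocysteine and serine, had 27.1, 29.1, 28.45 and 37.7 CPM in Wfs1KO and 56.7, 48.6, 57.8 and 57.7 CPM in WT. Its groups were far apart, and it fell (log2 fold change -0.85, SE 0.10, adjusted p = 1.11e-04), while Ggt7, a member of the gamma-glutamyltransferase family, fell by -0.29.

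Among these lists of amino acid handling, the amino acid response list had the most calls. By edgeR 10 of its 16 genes were higher, 1 was lower and 5 did not pass (median 0.69), where 10.4% of all tested genes were called higher. DESeq2 and limma-voom each called 12 of the 16 higher and 1 lower. Atf4 stood at 379, 411, 397 and 378 CPM in Wfs1KO and 345, 310.1, 302 and 266 CPM in WT (log2 fold change 0.35, adjusted p = 0.00395). Asns, which encodes asparagine synthetase, had 254, 265, 217 and 289 CPM in Wfs1KO and 169, 149.6, 152 and 127 CPM in WT (log2 fold change 0.78, adjusted p = 2.07e-04). This list holds genes known from earlier results of these data and is no independent support. Of 28 tested genes by which mTORC1 senses amino acids, 4 rose, 4 fell and 20 did not pass (median -0.02). The leucine sensor gene Sesn2, also in the amino acid response list, rose (log2 fold change 0.61, adjusted p = 0.00111), while its relatives Sesn1 (-0.26) and Sesn3 (-0.23) fell.

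In the authors' deposited table, all 35 tested members had the same sign as here, and 11 were higher and 5 lower at an adjusted p of 0.05. Its log2 fold changes were smaller for the steepest genes, 2.94 for Slc7a11 and 2.95 for Slc7a3. They were also smaller for less steep genes, such as Slc1a4 (0.64, against 0.95 here) and the scarce Slc1a1 (0.43, against 0.82 here).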

How the data were processed

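Polyadenylated RNA of 8 islet samples was sequenced. Per the file headers, the deposited values are raw counts, made by the authors with HOMER from reads in exons of RefSeq genes in mm10, 1 entry per gene, with no strand option. STAR 2.6.0a and HOMER 4.11.1 are named in the submitters' processing notes. The log2 fold changes and the p-values of the authors' deposited table come from HOMER's comparison script, per the file headers, and DESeq2 is named in the notes, with settings not given in the sources used here. Their transformed values were not used.

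Genotypes were compared over all genes by edgeR 4.0.16 in R 4.3.3 (filterByExpr with a minimum count of 10, TMM, robust quasi-likelihood F-test, Benjamini-Hochberg adjustment, called under 0.05), after a test on simulated data. SE is the fold change over the root of F. CPM use TMM-scaled library sizes, and CPM per kb divide by the exon length in the table. Depth was 15810830 to 27057617 exon counts per library and the common biological coefficient of variation 10.7%. Limma 3.58.1 and DESeq2 1.42.0 served as alternatives. No pair of libraries had identical counts. The labels do not say that samples are separate animals, so p-values measure the spread between these samples.

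The main fit has no term for the replicate numbers, which come from the labels and whose meaning the labels do not give. A block by replicate number served as an alternative. Same-numbered samples deviated together from the mean of their genotype, with correlations over genes of 0.153, 0.443, 0.269 and 0.188 (genes are not independent replicates). Correlations between differently numbered samples are not given here, so these values do not show that the samples are paired. The members, lists, motifs and tests were chosen with earlier results of these data known. All 18 called members, and those with a mean of at least 5 CPM in either genotype, are given in every library, and other members by range. Exon overlaps are from GENCODE M21 (GRCm38), which held all 42 members. Promoter windows are from RefSeq (GRCm38.p6). The 11 members without one were Slc1a5, Slc7a2, Slc7a3, Slc7a4, Slc7a5, Slc7a12, Slc7a13, Slc36a2, Slc38a1, Slc38a3 and Slc43a3. How reads shared by paralogs were counted is not given in the sources used here.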

Additional observations from a re-analysis of the deposited data

Results flagged for a closer look

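In 3 of 70 groups of 4 libraries, 1 library lay far from the other 3, by a test that marks about 1 in 20 groups by chance. Slc7a11 stood at 0.638 CPM in WT replicate 4, against 1.85 to 2.05 CPM in the other WT libraries. Without that library its log2 fold change was 3.67 (adjusted p = 5.79e-07). Slc38a2 stood at 230.2 CPM in WT replicate 1, against 199 to 202 CPM in the other WT libraries. Slc7a7 stood at 2.89 CPM in WT replicate 1, against 3.69 to 3.83 CPM in the other WT libraries.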

How the results depend on the processing

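Of the 18 called members, 13 stayed called in the same direction in all 17 alternatives (8 that leave out 1 library and 9 others), and 5 lost the call in at least 1 (Slc1a4, Slc36a1, Slc36a4, Slc38a7 and Slc38a11). Members called higher numbered 9 to 11 and members called lower 4 to 5 without 1 library, against 13 and 5 with all, and all genes called numbered 1354 to 1460 higher and 1019 to 1299 lower. With the replicate block, 12 members and 1603 of all genes were higher, and 5 members and 1329 of all genes were lower. It ended the calls of Slc1a4 and Slc38a11, added Slc38a1 and changed no other member's call. With a term for replicates 1 and 2 against 3 and 4, 13 rose and 5 fell, with Slc1a4 lost (adjusted p = 0.0694) and Slc38a1 gained (0.00772). DESeq2 called 11 higher and 5 lower. With DESeq2, Slc36a4 (0.0595) and Slc38a11 (0.0604) were lost, without a filter Slc1a4 (0.0808) and Slc38a11 (0.0661), with DESeq2 size factors Slc1a4 (0.0501), with limma-voom Slc36a4 (0.0506), and with the acinar score Slc38a11 (0.0796). Limma-voom also passed Slc38a1 (0.0478). Signs turned only in members that did not pass. The log2 fold change of Slc1a3 was 0.037 with limma-voom and 0.12 with the acinar score, and ran from -0.29 to 0.16 without 1 library (0.16 without Wfs1KO replicate 3, 0.14 without WT replicate 1). That of Slc38a3 was 0.22 with the acinar score and ran from -0.44 to 0.14 without 1 library (0.0068, 0.14 and 0.06 without Wfs1KO replicate 2, Wfs1KO replicate 3 and WT replicate 3). That of Slc7a14 ran from -0.10 to 0.0089 without 1 library, the highest without WT replicate 1. The causes were not tested. Of the 7 members under the filter no call could be made, at 0 to 24 reads per library.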

Other observations

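Within a genotype, the same library was the lowest or the highest for several members. WT replicate 4 was the lowest WT library for 7 of the 13 members called higher (Slc1a4, Slc1a5, Slc3a2, Slc7a1, Slc7a5, Slc7a11 and Slc38a7) and for 12 of the 16 genes of the amino acid response list. In that library Trib3, a target of ATF4 and CHOP, had 6.87 CPM, against 21.9 to 25.4 CPM in the other WT libraries, and Chac1, which degrades glutathione, had 31.0 CPM, against 53.5 to 75.3 CPM. Its beta cell markers were the highest of all libraries (207900 CPM, against 162200 to 170700 CPM in the other WT libraries). Among Wfs1KO libraries, replicate 3 was the lowest for 7 of the 13 members (Slc1a4, Slc1a5, Slc3a2, Slc7a3, Slc7a5, Slc7a11 and Slc43a3) and for 10 of the 16 response genes, and it had the least acinar marker RNA (10690 CPM, against 30720 to 72970 CPM in the other Wfs1KO libraries). Replicate 4 was the highest for 7 of the 13 (Slc1a4, Slc7a1, Slc7a3, Slc7a5, Slc7a11, Slc36a4 and Slc38a7). These patterns were noticed in the data and have no test. How often each library was the lowest or highest over all tested genes is not given here. The patterns are thus not shown to be particular to these genes.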
